A study of Mus musculus with 12 samples.

Results

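The genes described here are 10 genes of the transforming growth factor beta (TGF-beta) pathway, measured by bulk RNA-sequencing in the post-stroke mouse brain. They are the ligands *Tgfb1*, *Tgfb2* and *Tgfb3*, the receptors *Tgfbr1*, *Tgfbr2* and *Tgfbr3*, the latent binding proteins *Ltbp1* and *Ltbp2*, and the targets *Tgfbi* and *Smad7*. They were taken by name, as the rows whose Ensembl identifier carries one of these symbols, 10 of the 49315 genes in the count table. All 10 passed the filter on low counts, as did 20290 genes in all. The brains came from 12 mice at 14 d post-stroke, 6 in each marrow group. All recipients were male CD45.1 Pep Boy mice on a C57Bl6 background, irradiated at 8 to 12 weeks of age with the head shielded. The WT group received 10% CD45.2 Tet2+/+ marrow and the Tet2-KO group 10% CD45.2 Tet2-/- marrow, and in both groups the other 90% was CD45.1 Tet2+/+ marrow. Stroke was produced in both groups by 30 min of middle cerebral artery occlusion, 8 to 10 weeks after the transplant, and no sham-operated brain is among these samples. Host brain cells and most of the transplanted cells therefore kept *Tet2*, and so its brain level does not check the labels. *Tet2* lay between 126 and 147 CPM (reads scaled to the size of the library) with WT marrow and between 117 and 137 CPM with *Tet2*-KO marrow (log2 fold change -0.0097, edgeR adjusted p = 0.934). The treatment entry of the *Tet2*-KO samples names control cells, against their titles and genotype entries, and the titles set the groups. Total counts were 12000261 to 15340787 per WT mouse and 12625047 to 21049763 per *Tet2*-KO mouse. Markers of neurons and astrocytes, the labelled tissue, were plentiful in all 12 brains, with summed levels of 8 genes each from 4036 and 5417 CPM upwards.

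TGF-beta ligands are secreted in a latent form, bound to a propeptide that latent TGF-beta binding proteins tether to the extracellular matrix. Integrins, proteases and matrix proteins release the active ligand, which brings the type II receptor together with the type I receptor, and the activated receptor phosphorylates Smad2 and Smad3. These enter the nucleus with Smad4 and switch on genes of matrix production, fibrosis and feedback, among them the inhibitor Smad7. In the injured brain the pathway is known for scar formation, for the state of microglia and for restraining inflammation. The question here is whether its transcripts differed in the brain between recipients of *Tet2*-KO BM cells and recipients of WT BM cells.

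The sequences below show the DNA upstream of the ligands *Tgfb1* and *Tgfb2*, with fitted log2 fold changes (*Tet2*-KO over WT) of -0.90 and 0.047 that did not pass the adjusted threshold, and of *Ltbp2* and *Tgfbi*, which had the lowest log2 fold changes of the 10 genes. Windows of 250 bases before the gene start were found in RefSeq (GRCm38.p6) for 7 of the 10 genes; *Tgfb3*, *Tgfbr3* and *Smad7* had no match. Capitals mark CAGAC, the Smad-binding element, or GGGCGG, the GC box, on either strand, and no match overlapped another. The stretch of *Tgfb1* is chr7:25686752-25687001 on the plus strand, and that of *Tgfb2* is chr1:186705990-186706239 on the minus strand, in part inside an exon of the antisense gene *Gm29491*. *Ltbp2* is shown at chr12:84876533-84876741 on the minus strand and *Tgfbi* at chr13:56609336-56609522 on the plus strand, both shortened to 209 and 187 bases so as to stop before the first exon of the GENCODE gene. The 250 bases of *Ltbp2* lie inside the antisense gene *D030025P21Rik*.
Tgfb1: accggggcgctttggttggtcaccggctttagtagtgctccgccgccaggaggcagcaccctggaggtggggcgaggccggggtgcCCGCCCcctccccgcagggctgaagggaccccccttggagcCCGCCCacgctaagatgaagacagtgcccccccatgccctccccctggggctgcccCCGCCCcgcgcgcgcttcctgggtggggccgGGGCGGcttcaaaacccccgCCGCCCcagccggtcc
Tgfb2: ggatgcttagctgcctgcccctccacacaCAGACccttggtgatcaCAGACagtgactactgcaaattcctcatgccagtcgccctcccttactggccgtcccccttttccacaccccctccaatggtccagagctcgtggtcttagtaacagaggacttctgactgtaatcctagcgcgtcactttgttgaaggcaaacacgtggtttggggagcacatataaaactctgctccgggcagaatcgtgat
Ltbp2: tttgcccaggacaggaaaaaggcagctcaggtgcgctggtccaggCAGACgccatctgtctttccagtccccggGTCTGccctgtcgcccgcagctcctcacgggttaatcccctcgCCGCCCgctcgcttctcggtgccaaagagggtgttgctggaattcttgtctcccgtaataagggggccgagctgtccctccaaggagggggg
Tgfbi: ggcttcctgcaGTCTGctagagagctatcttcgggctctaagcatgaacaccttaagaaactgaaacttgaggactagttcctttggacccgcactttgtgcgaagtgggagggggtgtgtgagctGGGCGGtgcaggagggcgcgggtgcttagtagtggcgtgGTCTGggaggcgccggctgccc
The *Tgfb1* stretch held 5 GC boxes and no Smad-binding element, with a GC content of 75.2%. The *Tgfb2* stretch held 2 Smad-binding elements and no GC box, with a GC content of 53.6%. Over the full 250 bases, *Ltbp2* held 2 elements and 2 GC boxes, and *Tgfbi* held 2 elements and 1 GC box. Of 32851 such windows in the genome, 42.2% held a Smad-binding element and 11.7% held at least 2, while 32.7% held a GC box and 1.93% held at least 5. These are matches of letters, without a measure of binding in these brains.

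Of the 10 genes, 9 had a lower fitted level in the *Tet2*-KO group, 8 of them under every alternative run and *Smad7* with a sign that turned under 5 of them. In the quasi-likelihood test of edgeR, 6 of the 10 had an unadjusted p below 0.05, all of them on the lower side, where 12.2% of all tested genes had such a p on that side and 23.1% on either side. The 6 were *Tgfb1*, *Tgfbr1*, *Tgfbr3*, *Ltbp1*, *Ltbp2* and *Tgfbi*. Because the 10 genes were chosen with earlier results of these data known, the shares are given for reference and do not test the list. None of the 10 passed an adjusted p of 0.05, a threshold that 5 of the 20290 tested genes (0.0246%) passed. The median log2 fold change (*Tet2*-KO over WT) of the 10 was -0.40, beside 0.010 over all tested genes. The groups overlapped in every one of the 10 genes; a full separation with the *Tet2*-KO mice lower was seen in 0.641% of tested genes. Limma-voom with sample weights placed 6 of the 10 under an adjusted p of 0.05, all lower, against 7.01% of tested genes on that side and 9.92% on either side. DESeq2 placed none there, against 3.38% and 4.32% of the genes to which it gave an adjusted p. The count with an unadjusted p below 0.05 was 3 without WT mouse 2, without *Tet2*-KO mouse 3 or without *Tet2*-KO mouse 6. In these fits 15.3%, 17.9% and 17.9% of all tested genes had such a p on either side. The count past the adjusted threshold was 4 without *Tet2*-KO mouse 5, where 7.30% of tested genes were past it on the lower side. In bulk tissue, fewer cells of a type and less RNA per cell cannot be told apart.

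**Figure D1:**
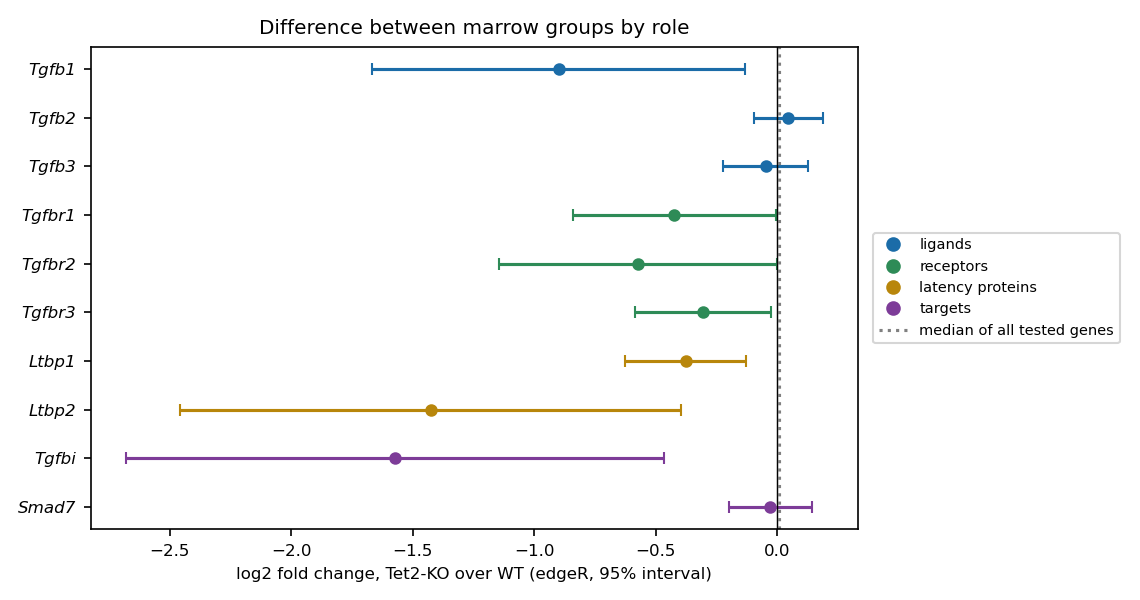
Log2 fold change of the 10 TGF-beta genes (*Tet2*-KO over WT) with its 95% interval from edgeR, coloured by role, with a dotted line at the median of all tested genes (0.010). *Tgfbi* and *Ltbp2* sit farthest left at -1.57 and -1.43, and the intervals of *Tgfb2*, *Tgfb3* and *Smad7* include 0.

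Among the ligands, *Tgfb1*, the isoform made by immune and glial cells, had a lower mean in the *Tet2*-KO group, while the intervals of the fold changes of *Tgfb2* and *Tgfb3*, the other isoforms, included 0. In the WT group *Tgfb1* (ENSMUSG00000002603) was at 53.5, 91.4, 38.5, 47.3, 41.1 and 40.1 CPM in mice 1 to 6, and in the *Tet2*-KO group at 12.3, 26.4, 22.1, 40.1, 48.8 and 17.8 CPM. Thus 4 of 6 *Tet2*-KO mice lay below every WT mouse, and mice 4 and 5 lay among the WT values. The means were 52.0 ± 20.1 CPM (SD, n = 6) and 27.9 ± 13.9 CPM (SD, n = 6). The log2 fold change was -0.90 (SE 0.35), with an unadjusted p of 0.0259 and an adjusted p of 0.169 in edgeR. The exact two-sided permutation test over mice gave p = 0.0260, and no p below 0.00216 is possible with 6 mice against 6. The unadjusted edgeR p of *Tgfb1* was above 0.05 in 3 of the 12 fits that left out 1 mouse, at 0.0711 without WT mouse 2 (log2 fold change -0.66), 0.0516 without *Tet2*-KO mouse 3 and 0.0528 without *Tet2*-KO mouse 6. *Tgfb1* spans chr7:25687002-25705077 on the plus strand of GRCm38 and has 8 blocks of exons in GENCODE M21.

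*Tgfb2* (chr1:186622792-186705989, minus strand) ranged from 20.9 to 24.2 CPM in WT mice, with a median of 22.7, and from 21.6 to 26.1 CPM in *Tet2*-KO mice, with a median of 22.5. Its log2 fold change was 0.047 (95% interval -0.096 to 0.19, edgeR adjusted p = 0.721). *Tgfb3* (chr12:86056745-86079041, minus strand) ranged from 17.8 to 23.0 CPM in WT mice, with a median of 20.9, and from 17.3 to 22.4 CPM in *Tet2*-KO mice, with a median of 20.9. The groups overlapped in both genes, and in *Tgfb2* 2 *Tet2*-KO mice lay above every WT mouse. For *Tgfb3* the log2 fold change was -0.046 (95% interval -0.22 to 0.13, edgeR adjusted p = 0.784). The intervals of both genes leave out the fitted log2 fold change of *Tgfb1*, but the difference between the ligands was not tested with a model. *Tgfb2* shares 124 exon bases with *Gm29491* and *Tgfb3* shares 163 with *Gm37804*, each on the opposite strand, and the library kit and sources used here do not tell the strand of a read.

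**Figure D2:**
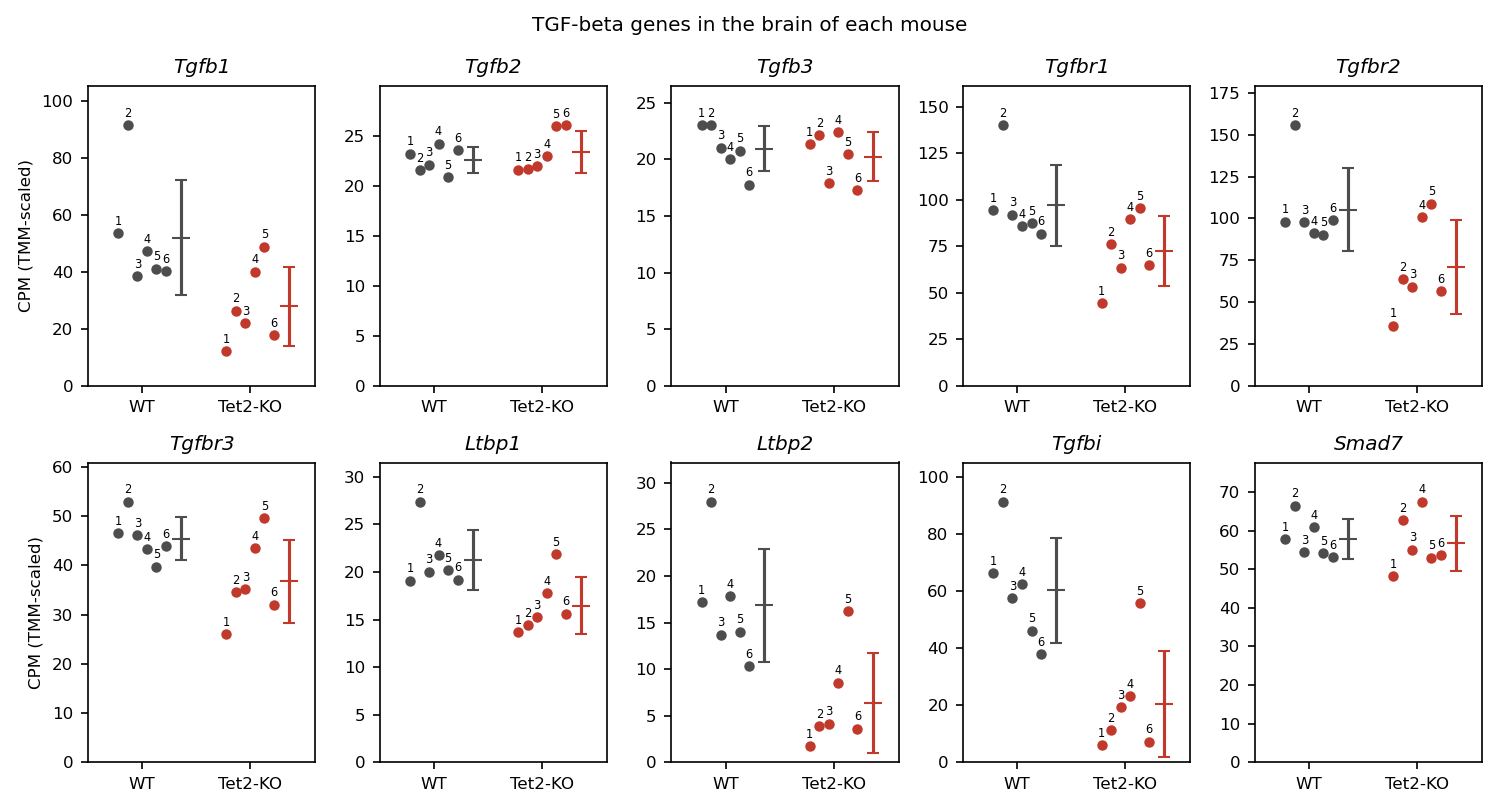
CPM (TMM-scaled) of each TGF-beta gene in each of the 12 brains, numbered by mouse, with the mean and SD of each group beside the points and axes that start at 0. WT mouse 2 is the highest of all mice in 8 of the 10 genes, and *Tet2*-KO mouse 5 is the highest of its group in 7.

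Per kilobase of exon, *Tgfb1* was the leading ligand in 6 of 6 WT brains, while *Tgfb3* led in 4 of 6 *Tet2*-KO brains. Of the ligand reads per kilobase, *Tgfb1* made up 49.3% ± 7.18 (SD, n = 6) with WT marrow, from 43.2% to 63.3%, and 33.9% ± 10.3 (SD, n = 6) with *Tet2*-KO marrow, from 19.5% to 47.9%. *Tgfb3* made up 31.0% ± 4.06 (SD, n = 6) and 39.4% ± 6.85 (SD, n = 6), and *Tgfb2* 19.8% ± 3.68 (SD, n = 6) and 26.7% ± 5.00 (SD, n = 6). The *Tgfb1* share was below every WT mouse in 5 of 6 *Tet2*-KO mice, and the exception was mouse 5. The difference in the share, -15.4 percentage points, lay between -18.2 and -12.5 when each mouse was left out in turn. The shares were computed after the levels had been seen and are given without a test. They move as a whole, so a lower *Tgfb1* raises the shares of the others at equal levels.

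**Figure D3:**
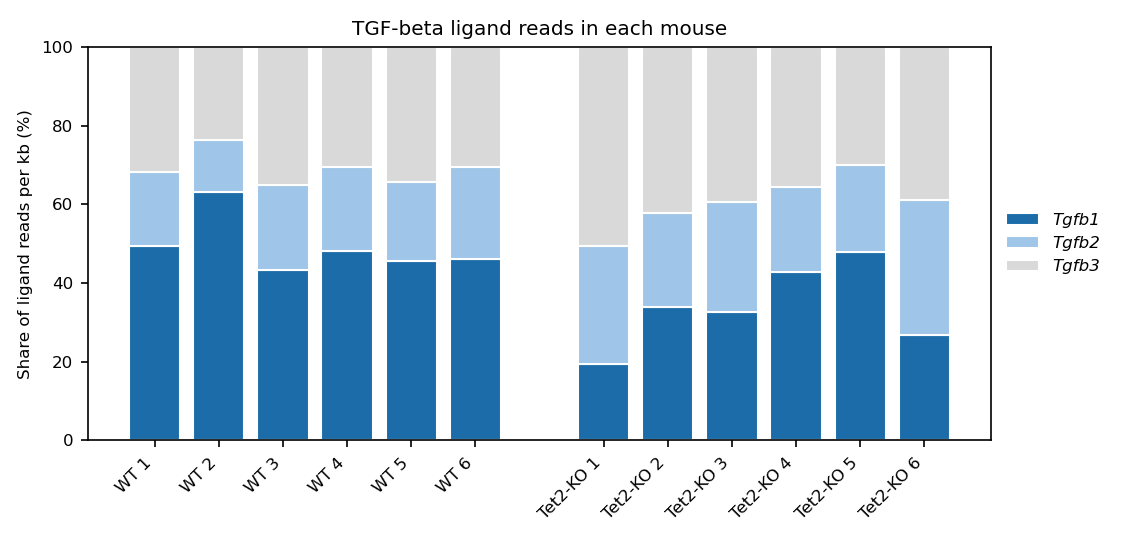
Share of each ligand in the ligand reads per kilobase of exon (percent, stacked) in each mouse. *Tgfb1* runs from 43.2% to 63.3% in WT mice and from 19.5% to 47.9% in *Tet2*-KO mice.

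All of the receptors had lower means in the *Tet2*-KO group. Their fitted log2 fold changes were smaller in size than that of *Tgfb1*, a difference that was not tested. *Tgfbr2* (chr9:116084293-116175360, minus strand), the type II receptor that binds the ligand first, was at 90.3, 97.8 and 156 CPM in the lowest, median and highest WT mouse and at 36.1, 61.5 and 109 CPM in the *Tet2*-KO group. *Tgfbr1* (chr4:47353222-47414931, plus strand), the type I receptor kinase that acts on the Smads, was at 81.9, 89.6 and 140 CPM in the lowest, median and highest WT mouse and at 44.4, 70.4 and 95.5 CPM in the *Tet2*-KO group. *Tgfbr3* (chr5:107106570-107289629, minus strand), the co-receptor betaglycan, was at 39.7, 45.1 and 52.9 CPM in the lowest, median and highest WT mouse and at 26.0, 34.8 and 49.6 CPM in the *Tet2*-KO group. In each receptor 4 of 6 *Tet2*-KO mice lay below every WT mouse, and mice 4 and 5 lay inside the WT range. The log2 fold changes in edgeR were -0.57 for *Tgfbr2* (SE 0.26, adjusted p = 0.217), -0.42 for *Tgfbr1* (SE 0.19, adjusted p = 0.211) and -0.31 for *Tgfbr3* (SE 0.13, adjusted p = 0.187). The exact permutation test gave p = 0.0455, 0.0476 and 0.0455 in that order. These values lean on single mice: with WT mouse 2 left out the log2 fold change was -0.43 for *Tgfbr2* and -0.29 for *Tgfbr1*, and the unadjusted edgeR p stayed below 0.05 in 2 and 4 of the 12 fits that left out 1 mouse, and in 5 of 12 for *Tgfbr3*. *Tgfbr3* shares 297 exon bases with *Gm43422* on its own strand.

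The shares of the receptors in their summed reads per kilobase are given without a test. *Tgfbr1* held 42.7% ± 1.49 (SD, n = 6) with WT marrow and 44.1% ± 2.26 (SD, n = 6) with *Tet2*-KO marrow. *Tgfbr2* held 37.0% ± 1.51 (SD, n = 6) and 33.3% ± 3.49 (SD, n = 6), and *Tgfbr3* held 20.3% ± 1.89 (SD, n = 6) and 22.6% ± 2.16 (SD, n = 6). The share of *Tgfbr2* was lower in 4 of 6 *Tet2*-KO mice than in any WT mouse, from 29.0% in mouse 1, and these were the 4 with the lowest *Tgfb1* level.

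The latent binding proteins were both lower in 5 of 6 *Tet2*-KO mice than in any WT mouse. *Ltbp1* (chr17:75005568-75392512, plus strand), which ties latent TGF-beta to the matrix, was at 19.1, 20.1 and 27.4 CPM in the lowest, median and highest WT mouse and at 13.7, 15.4 and 21.9 CPM in the *Tet2*-KO group. *Ltbp2* (chr12:84783212-84876532, minus strand), a relative found with microfibrils that does not itself bind latent TGF-beta, was at 10.3, 15.6 and 28.0 CPM in the WT group and at 1.73, 4.03 and 16.2 CPM in the *Tet2*-KO group. In both genes *Tet2*-KO mouse 5 was the one that reached the WT values. The log2 fold change of *Ltbp1* was -0.38 (SE 0.12, edgeR unadjusted p = 0.00563, adjusted p = 0.123), and its exact permutation p was 0.0238. That of *Ltbp2* was -1.43 (SE 0.47, edgeR unadjusted p = 0.0113, adjusted p = 0.135), and its exact permutation p was 0.00866. Both kept an unadjusted p below 0.05 in all 12 fits that left out 1 mouse. *Ltbp2* had from 28 to 390 reads per mouse, and 764 of its exon bases lie opposite *D030025P21Rik*, which had a mean of 1.25 reads.

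The targets parted. *Tgfbi* (chr13:56609523-56639562, plus strand), a matrix protein first found as a gene that TGF-beta switches on, was at 66.2, 91.3, 57.5, 62.4, 46.2 and 38.0 CPM in WT mice 1 to 6 and at 5.95, 11.4, 19.3, 23.1, 55.9 and 7.31 CPM in *Tet2*-KO mice 1 to 6. Mouse 5 alone of the *Tet2*-KO group reached the WT values. Its means were 60.3 ± 18.5 CPM (SD, n = 6) and 20.5 ± 18.6 CPM (SD, n = 6), and its log2 fold change of -1.57 (SE 0.50) had an unadjusted p of 0.00988 and an adjusted p of 0.132 in edgeR. The exact permutation test gave p = 0.00649. In *Tgfbi*, as in *Ltbp2*, the log2 fold change was below -1, which held for 2.07% of all tested genes. Without *Tet2*-KO mouse 5 the log2 fold change of *Tgfbi* was -2.16 with an edgeR adjusted p of 0.0138, and that of *Ltbp2* was -1.92 with an edgeR adjusted p of 0.0160. This was the 1 of 12 fits leaving out a mouse in which either gene passed the adjusted threshold. At the other end, the log2 fold change of *Tgfbi* was -1.38 without *Tet2*-KO mouse 1 and that of *Ltbp2* was -1.22 without WT mouse 2.

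*Smad7*, the feedback inhibitor that the pathway induces and that blocks the type I receptor, was at 53.1, 56.0 and 66.4 CPM in the lowest, median and highest WT mouse. It was at 48.1, 54.3 and 67.5 CPM in the *Tet2*-KO group. The groups overlapped almost wholly. Its log2 fold change was -0.027 (95% interval -0.20 to 0.14, edgeR adjusted p = 0.878), and the exact permutation test gave p = 0.719. Its sign turned under upper quartile scaling, with a log2 fold change of 0.0067, in limma-voom and in 3 fits with mice left out.

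Compared per kilobase of exon, the order of levels differed between the groups. In WT brains *Tgfbi* led with 15.98 ± 4.90 CPM per kb (SD, n = 6), followed by *Tgfbr1* at 14.8 ± 3.31, *Tgfbr2* at 12.9 ± 3.05, *Smad7* at 12.8 ± 1.13 and *Tgfb1* at 10.3 ± 3.99. After these came *Tgfbr3* at 6.94 ± 0.673, *Tgfb3* at 6.19 ± 0.584, *Tgfb2* at 3.90 ± 0.223, *Ltbp2* at 2.06 ± 0.744 and *Ltbp1* at 1.99 ± 0.294. Neighbours in that order overlapped in their ranges except *Tgfb3* over *Tgfb2* and *Tgfb2* over *Ltbp2*. In *Tet2*-KO brains *Smad7* led with 12.5 ± 1.57 CPM per kb (SD, n = 6), followed by *Tgfbr1* at 11.1 ± 2.88 and *Tgfbr2* at 8.65 ± 3.43. *Tgfb3* at 5.98 ± 0.639, *Tgfbr3* at 5.62 ± 1.29, *Tgfb1* at 5.53 ± 2.76 and *Tgfbi* at 5.43 ± 4.93 overlapped in their ranges, ahead of *Tgfb2* at 4.04 ± 0.363. *Ltbp1* at 1.54 ± 0.281 and *Ltbp2* at 0.778 ± 0.652 came last. By its mean *Tgfbi* thus went from the first place in WT brains to the seventh in *Tet2*-KO brains. It had the highest relative spread among *Tet2*-KO mice of the 10 genes (coefficient of variation 90.8%, beside 30.6% in WT mice). The places did not hold in every mouse. *Tgfbr1* exceeded *Tgfbi* in WT mice 5 and 6. In *Tet2*-KO mice 1, 2 and 6 *Tgfbi* lay below *Tgfb2*, while mouse 5 had 14.8 CPM per kb of *Tgfbi*.

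The 7 genes other than *Tgfb2*, *Tgfb3* and *Smad7* varied together from mouse to mouse. After the group means were subtracted from log2 CPM, *Tgfb1*, the receptors, *Ltbp1*, *Ltbp2* and *Tgfbi* correlated with each other at Pearson r from 0.80 to 0.97 over the 12 mice (21 pairs). *Tgfb2* correlated with them at 0.18 to 0.38 and *Tgfb3* at 0.23 to 0.44. *Smad7* correlated with them at 0.39 to 0.71, and at 0.69 to 0.95 over 10 mice without WT mouse 2 and *Tet2*-KO mouse 5. Without these mice the 7 genes correlated at 0.65 to 0.96, *Tgfb2* with them at -0.10 to 0.34 and *Tgfb3* at 0.00094 to 0.38. All values of a mouse come from 1 library, and the 7 genes were put together after their levels had been seen, so these are descriptions.

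Of 13482 genes compared in this way, those nearest to *Tgfb1* over the 12 mice were *Tcirg1* (r = 0.994), a subunit of the proton pump of lysosomes and osteoclasts, *Wasf2* (r = 0.992), a regulator of actin, and *Apoe* (r = 0.991), the lipid carrier of astrocytes and phagocytes. Nearest to *Tgfbr2* were *Rin2*, *Plek* and *Gas2l3* (r = 0.993, 0.991 and 0.989), and nearest to *Tgfbr1* were *Reep3*, *Csf3r* and *Wipf1* (r = 0.987, 0.979 and 0.978). *Plek* is a protein of platelets and leukocytes and *Csf3r* the receptor for granulocyte colony-stimulating factor. *Tgfbr3* was nearest to *Fcgr1*, *Bst2* and *Tlr13* (r = 0.982, 0.982 and 0.978), an Fc receptor, an interferon-induced membrane protein and an RNA sensor. *Ltbp1* was nearest to *Slc38a6*, *H2-T22* and *Akap13* (r = 0.976, 0.974 and 0.970). *Ltbp2* was nearest to *Csf2rb2*, *Csf2rb* and *C1ra* (r = 0.994, 0.990 and 0.989), cytokine receptor chains and a complement protease. *Csf2rb2* and *Csf2rb* are close relatives that may share reads. *Tgfbi* was nearest to *Adam8*, *H2-Q6* and *Il2rg* (r = 0.970, 0.963 and 0.963). The neighbours of the other genes were *Hmbox1*, *Alox8* and *Slc24a5* for *Tgfb2* (r = 0.923, 0.861 and 0.856), *Kif22*, *Sdf2l1* and *Nf2* for *Tgfb3* (r = 0.935, 0.896 and 0.883) and *Cxcl5*, *Pacs2* and *Gcnt2* for *Smad7* (r = 0.955, 0.940 and 0.930). All of these neighbours were picked as the highest of 13482 values and were not tested. Over 10 mice, without WT mouse 2 and *Tet2*-KO mouse 5, the same correlations ran from 0.84 to 0.99.

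Summed markers of several cell types ordered the *Tet2*-KO mice as *Tgfb1* did. The summed level of 8 lesion phagocyte markers (*Gpnmb*, *Spp1*, *Lgals3*, *Cd68*, *Lyz2*, *Msr1*, *Itgax*, *Clec7a*) ranged from 1105 to 2871 CPM in WT mice and from 71.3 to 1613 CPM in *Tet2*-KO mice. In the *Tet2*-KO group this sum ordered the mice from mouse 1 over 6, 3, 2 and 4 to mouse 5. *Tgfb1* and *Tgfbr2* gave the same order, and the other genes of the 10 gave different ones. WT mouse 2 was the highest of its group in the sum, in *Tgfb1* and in *Tgfbr2*. The order was not particular to phagocyte markers. The summed fibroblast and neutrophil markers ordered the *Tet2*-KO mice in the same way, with WT mouse 2 again the highest of its group. The fibroblast markers summed to 844 to 1691 CPM and 253 to 1052 CPM, and the monocyte markers to 438 to 887 CPM and 158 to 534 CPM, in WT and *Tet2*-KO mice. An unadjusted edgeR p below 0.05 on the lower side was found for 7 of 8 lesion phagocyte, 8 of 8 fibroblast and 7 of 8 monocyte markers, but for 1 of 8 markers of homeostatic microglia, 2 of 8 of endothelial cells and 2 of 8 of mural cells. The 4 tested neutrophil markers, which summed to 68.6 to 152 CPM in WT mice and 19.95 to 78.8 CPM in *Tet2*-KO mice, all had one, while the defining marker *Ly6g* had 0 to 1 reads in any mouse. Reactive astrocyte markers summed to 1316 to 3346 CPM and 522 to 2246 CPM, with 5 of 8 on the lower side, and neuron markers to 4036 to 5768 CPM and 5297 to 7026 CPM, with 7 of 8 on the higher side. For T cells, 4 of the 6 tested markers were on the lower side and 1 on the higher side. Among all tested genes, 12.2% had an unadjusted edgeR p below 0.05 on the lower side and 10.8% on the higher side. The part of these cell types in the levels of the TGF-beta genes was not tested.

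**Figure D4:**
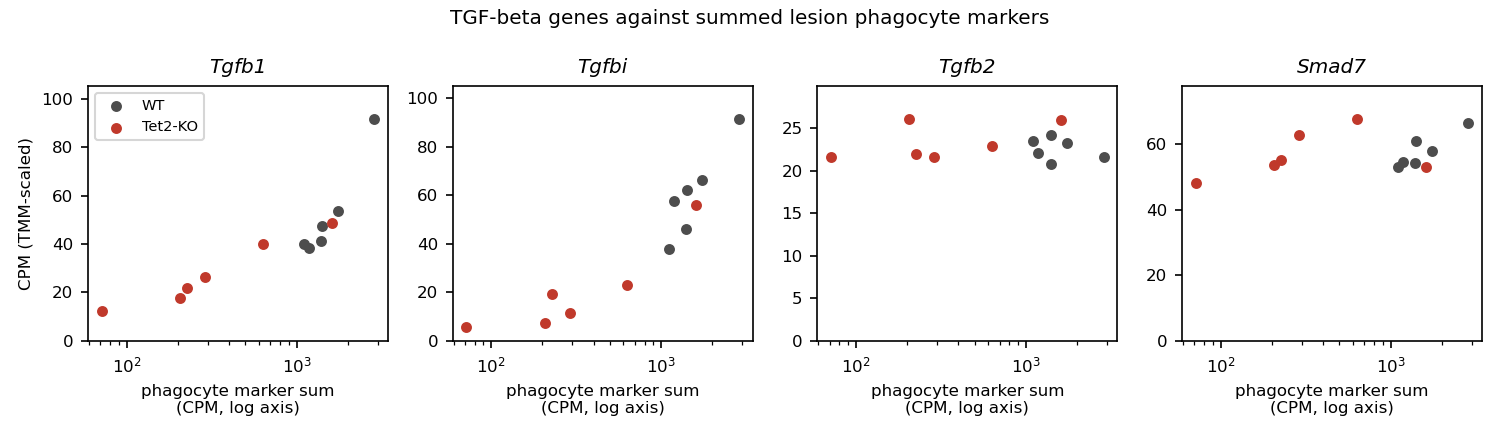
CPM of *Tgfb1*, *Tgfbi*, *Tgfb2* and *Smad7* (y axes from 0) against the summed CPM of 8 lesion phagocyte markers (log axis), 1 point per mouse, grey for WT and red for *Tet2*-KO. *Tgfb1* and *Tgfbi* climb with the marker sum, from mouse 1 of the *Tet2*-KO group at 71.3 to WT mouse 2 at 2871 CPM, while *Tgfb2* stays between 20.9 and 26.1 CPM.

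The wider pathway was read from 90 further genes grouped by role, 85 of which passed the filter. An unadjusted edgeR p below 0.05 was found on the lower side for 30 and on the higher side for 7, where 12.2% and 10.8% of all tested genes had one, and 48 had neither. In edgeR none passed the adjusted threshold, and the median log2 fold change was -0.13. This list too was chosen with earlier results of these data known, so the shares do not test it. DESeq2 placed 14 of the 85 on the lower side and 1 on the higher side past an adjusted p of 0.05, and limma-voom placed 23 and 2 there, where 4.32% and 9.92% of all genes were past it on either side. The gene on the higher side in DESeq2 was *Acvr1b*, and those on the lower side included *Thbs1*, *Fbn2*, *Lrrc32*, *Plat*, *Tgif1*, *Gdf15*, *Dcn*, *Fstl1*, *Tgm2*, *Timp1* and *Fn1*, whose edgeR values follow. The counts of each role are given beside the 12.2% and 10.8% of all tested genes. The values are given in the order of the signal from matrix to nucleus.

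Of the 11 tested genes that hold or release latent TGF-beta, 7 had an unadjusted p below 0.05 on the lower side and none on the higher side, with a median log2 fold change of -0.41. Such a p was found for 12.2% of all tested genes on the lower side and 10.8% on the higher side. *Thbs1*, thrombospondin 1, which activates latent TGF-beta, was at 72.1 ± 28.0 CPM (SD, n = 6) with WT marrow and 19.0 ± 14.2 CPM (SD, n = 6) with *Tet2*-KO marrow (log2 fold change -1.94, SE 0.45, edgeR adjusted p = 0.110). *Lrrc32*, the cell surface anchor of latent TGF-beta known as GARP, had a log2 fold change of -0.80 (SE 0.19), the microfibril gene *Fbn2* of -0.66 (SE 0.14) and the plasminogen activator *Plat* of -0.41 (SE 0.10), all with the same edgeR adjusted p of 0.110. In *Thbs1*, *Fbn2* and *Plat* 5 of 6 *Tet2*-KO mice lay below every WT mouse, and in *Lrrc32* 4. *Itgb6*, an integrin chain that activates the ligand, had 0 to 4 reads per mouse and was not tested.

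The other receptors and co-receptors of the superfamily had 1 of 12 genes on the lower side and 2 on the higher side. These counts lie near the 12.2% and 10.8% of all tested genes. *Eng*, the co-receptor endoglin of vessels, had a log2 fold change of -0.31 (SE 0.11, edgeR adjusted p = 0.136). The activin receptors *Acvr1b* and *Acvr2a* had log2 fold changes of 0.21 (SE 0.053, edgeR adjusted p = 0.110) and 0.19 (SE 0.069, edgeR adjusted p = 0.138). *Acvr1b* was at 90.5 to 101 CPM in WT mice and 104 to 126 CPM in *Tet2*-KO mice, and *Bmpr2*, the type II receptor for bone morphogenetic proteins, at 425 to 454 CPM and 457 to 549 CPM. In these 2 genes the groups did not overlap, with the *Tet2*-KO mice higher, as in 0.453% of all tested genes. *Bmpr2* had a log2 fold change of 0.11 (SE 0.054, edgeR adjusted p = 0.233).

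Among 18 Smad proteins and their regulators, 3 were on the lower side and 2 on the higher side. These counts too lie near the shares of all tested genes, 12.2% and 10.8%. The signal carriers *Smad2* and *Smad4* had log2 fold changes of -0.0077 (SE 0.057, edgeR adjusted p = 0.956) and -0.033 (SE 0.044, edgeR adjusted p = 0.702). *Smad3* had one of 0.12 (SE 0.045, edgeR adjusted p = 0.151) and its adaptor *Zfyve9* one of 0.12 (SE 0.054, edgeR adjusted p = 0.199). The co-repressor *Tgif1* was at 13.6 ± 3.34 CPM (SD, n = 6) with WT marrow and 6.95 ± 3.33 CPM (SD, n = 6) with *Tet2*-KO marrow (log2 fold change -0.98, SE 0.29, edgeR adjusted p = 0.124). The other inhibitory Smad, *Smad6*, had a log2 fold change of -0.44 (SE 0.19, edgeR adjusted p = 0.189), beside -0.027 for *Smad7*. In all, 13 of the 18 genes, *Smad2* and *Smad4* among them, had an unadjusted edgeR p of 0.05 or more. *Smad2* and *Smad4* were named for their place in the pathway after their values had been seen.

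Of 21 tested ligands and antagonists of the wider superfamily, 6 were on the lower side and 3 on the higher side. Over all tested genes the shares on these sides were 12.2% and 10.8%. *Gdf15*, a ligand released under cell stress, had a log2 fold change of -1.95 (SE 0.47, edgeR adjusted p = 0.110) from 3 to 106 reads per mouse. *Dcn*, decorin, which binds TGF-beta in the matrix, had one of -1.30 (SE 0.36, edgeR adjusted p = 0.121), and *Fstl1* one of -0.68 (SE 0.21, edgeR adjusted p = 0.125). *Nog*, the antagonist noggin of bone morphogenetic proteins, had a log2 fold change of 0.43 (SE 0.13, edgeR adjusted p = 0.123). *Dcn* also stands in the fibroblast list.

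Of 23 tested genes that TGF-beta is known to induce, 13 were on the lower side and none on the higher side, with a median log2 fold change of -0.48. Over all tested genes the shares were 12.2% on the lower side and 10.8% on the higher side. *Fn1*, fibronectin, was at 474 ± 140.1 CPM (SD, n = 6) with WT marrow and 221 ± 113 CPM (SD, n = 6) with *Tet2*-KO marrow (log2 fold change -1.10, SE 0.31, edgeR adjusted p = 0.123). The crosslinking enzyme *Tgm2* had a log2 fold change of -1.04 (SE 0.26, edgeR adjusted p = 0.114), the protease inhibitor *Timp1* one of -0.96 (SE 0.26, edgeR adjusted p = 0.116) and the cell cycle inhibitor *Cdkn1a* one of -0.41 (SE 0.13, edgeR adjusted p = 0.126). In all, 10 of the 23 genes had an unadjusted edgeR p of 0.05 or more. *Col1a1* and *Col1a2* of this list are also fibroblast markers, *Fn1* a monocyte marker and *Timp1* a reactive astrocyte marker in the lists used here.

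**Figure D5:**
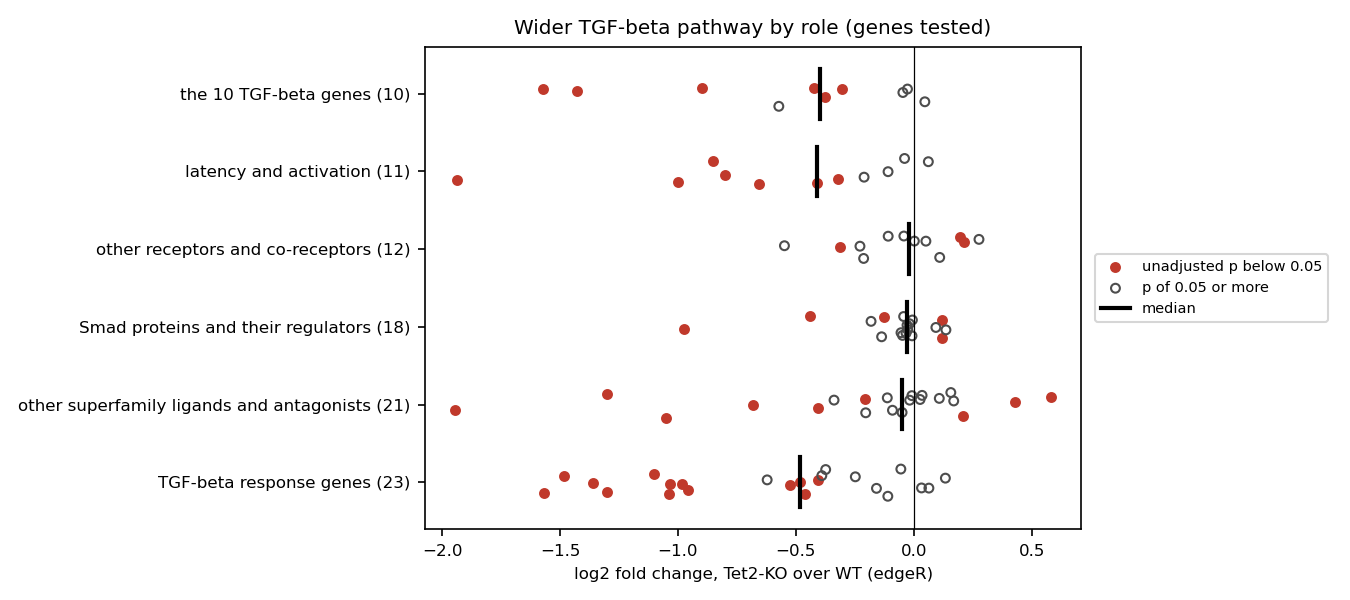
Log2 fold change (*Tet2*-KO over WT, edgeR) of the 10 TGF-beta genes and of the tested genes of the wider pathway by role, with the number tested in parentheses. Filled points have an unadjusted p below 0.05 and bars mark the medians, which are -0.41 for latency and activation and -0.48 for the response genes, and -0.020, -0.031 and -0.050 for the other 3 roles.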

How the data were processed

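Bulk RNA-sequencing of 12 mouse brains was analysed. The authors depleted ribosomal RNA, made libraries with NEBNext Ultra II and sequenced all of them on 1 HiSeq lane. Per the submitters' processing notes they used Trimmomatic 0.36, STAR 2.5.2b and featureCounts of Subread 1.5.2 on mm10, and the deposited values are counts per gene of uniquely mapped exon reads, without normalization. The annotation and strand setting of the counting are not given in the sources used here. Samples were grouped by title, and the labels name no batch. The sources call the tissue whole brains and, in one place, hemispheres.

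From the counts, CPM was computed with TMM scaling, and the groups were compared in R 4.3.3 with filterByExpr, the robust quasi-likelihood F test of edgeR 4.0.16 and Benjamini-Hochberg adjustment over all 20290 tested genes at 0.05, with no covariate. Exact two-sided permutation tests used log2(CPM + 0.1). Correlations used log2 CPM (prior count 2) after subtraction of group means, among genes with a mean of at least 5 CPM. Symbols (48970 of 49315 identifiers), exon lengths and coordinates came from GENCODE M21 (GRCm38), and upstream sequences from RefSeq. The alternatives were DESeq2 1.42.0, limma-voom (limma 3.58.1), DESeq2 size factors, upper quartile scaling, other filters, a replicate block, a pseudocount of 1 CPM and libraries left out. The scripts were tested on simulated data. Named genes were the 10 genes, the 4 with the smallest p of each role list and the 3 nearest patterns of each gene, apart from those said to be chosen later. The members and lists were chosen with earlier results of these data known. Libraries of 1 group differed by more than sampling noise (chi-square per degree of freedom 2.00 to 27.5), and intervals cover the spread between these mice. The 10 genes had from 28 to 2171 reads in a mouse. Values of the authors' own comparisons were not used.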

Additional observations from a re-analysis of the deposited data

Results flagged for a closer look

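Of 20 groups tested (10 genes in each marrow group of 6 mice), 5 held a mouse that stood apart from the others in Dixon's test of the gap to the next mouse. Chance alone flags about 1 in 20 of independent groups. These 20 were not independent, because the genes were measured in the same mice and several varied together. In 4 of the 5 flagged groups the mouse was the same one, WT mouse 2. It had 91.4 CPM of *Tgfb1*, where the other WT mice reached 53.5, and 140 CPM of *Tgfbr1*, where they reached 94.5. It had 156 CPM of *Tgfbr2*, where the others reached 99.1, and 27.4 CPM of *Ltbp1*, where they reached 21.8. In the remaining group, *Tet2*-KO mouse 5 had 55.9 CPM of *Tgfbi*, where the other *Tet2*-KO mice reached 23.1. These mice also had the highest lesion phagocyte marker sums of their groups, 2871 and 1613 CPM, and the highest fibroblast, monocyte and neutrophil marker sums. Why they stood apart was not tested.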

How the results depend on the processing

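The number of TGF-beta genes past the adjusted threshold was 0 in edgeR, 6 in limma-voom, 3 without WT mouse 2 and *Tet2*-KO mouse 5 together, and 0 to 4 when each mouse was left out in turn, with 4 without *Tet2*-KO mouse 5. It was 0 under the other 6 alternatives, DESeq2 and the replicate block included. Of all tested genes, 5 of 20290 were past the threshold on either side in edgeR and 2013 of 20290 in limma-voom. There were 1554 of 20464 without both mice and 2257 of 20525 without *Tet2*-KO mouse 5. The number with an unadjusted p below 0.05 was 6, and 3 to 7 with a mouse left out. It was 3 without WT mouse 2, *Tet2*-KO mouse 3 or *Tet2*-KO mouse 6. The share of all tested genes with such a p was 23.1%, and 15.3% to 28.0% with a mouse left out. The median log2 fold change of the 10 genes was -0.40, and -0.49 to -0.29 with a mouse left out. Of the wider pathway, 37 genes had an unadjusted p below 0.05, and 26 to 45 with a mouse left out. The fits with 26 and 45 left out WT mouse 2 and *Tet2*-KO mouse 4, where 15.3% and 26.3% of all tested genes had one. The sign of *Tgfb2* turned in limma-voom (-0.0058). That of *Smad7* turned in limma-voom (0.024), under upper quartile scaling (0.0067), without WT mouse 2 and *Tet2*-KO mouse 5 together (0.036), without WT mouse 2 (0.017) and without *Tet2*-KO mouse 1 (0.017), and ran from -0.087 to 0.017 with a mouse left out. The other 8 genes kept a lower level in the *Tet2*-KO group in every alternative run. The causes were not tested. With the replicate number as a block, 5 TGF-beta genes and 35 pathway genes had an unadjusted p below 0.05 and the median was -0.41. In that fit 21.3% of all tested genes had such a p. The labels do not say whether the numbers pair the mice. Same-numbered mice deviated together (r above 0.1) in 1 of 6 pairs, which does not settle it. A permutation pseudocount of 1 CPM left 7 genes with a p below 0.05, as did 0.1. For *Tgfb2*, *Tgfb3* and *Smad7*, differences as large as the ends of their 95% intervals are not excluded with 6 mice a group.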
